A study of Mus musculus with 2 samples.

Results

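Sall1 was followed through H3K27ac HiChIP of mouse microglia, an assay that counts joined pairs of DNA segments from chromatin pulled down for H3K27ac, the histone acetylation found at promoters and enhancers in use. Its interactions are those with a 10 kb anchor on the mm10 span of the gene extended by 1 kb on each side. They numbered 14 of 19061 called interactions in sham and 11 of 42905 at day 6, and Sall1 is 1 of 21900 protein-coding genes of the annotation used. The 3 bins that cover Sall1, the distal bins that they contacted, and the other interactions of those distal bins between 88.5 and 90 Mb of chromosome 8 are described below.

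Wild-type C57BL/6J males aged 8 to 24 weeks had either sham surgery or a 60 min occlusion of the middle cerebral artery (MCAO) with reperfusion, a model of ischemic stroke. Microglia were sorted as CD45-intermediate, CD11b-intermediate cells, 200000 to 300000 from a hemisphere, and each of the 2 conditions, sham and day 6 after MCAO, had 1 library. How many animals went into a library is not stated in the labels, so no difference between the conditions has a replicate check and none was tested. In bulk cells, contacts in fewer cells and fewer contacts per cell cannot be told apart.

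Sall1 encodes a zinc-finger regulator of transcription that in the adult brain is largely restricted to microglia among immune cells. It holds microglia in their homeostatic state, and microglia that lose it take on features of inflammatory phagocytes. Its expression depends on TGF-beta signalling through SMAD proteins and on distal enhancers far upstream of the promoter, in a long stretch without other coding genes. An enhancer is read here through looping, since HiChIP counts how often an acetylated distal segment was joined to a segment of the gene.

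The gene lies on the minus strand of chromosome 8, from 89027242 to 89044162, a span of 16921 bases. RefSeq annotates 3 transcription starts, at 89044162, 89043512 and 89042862, and all of them fall in 1 bin, chr8:89040001-89050000, called the start bin. The middle bin, chr8:89030001-89040000, lies inside the gene. The end bin, chr8:89020001-89030000, holds the 3′ end of Sall1 and the microRNA gene Mir8110. The start bin also holds Gm3134, a non-coding neighbour on the promoter side, and counts in 10 kb bins cannot separate it from Sall1. The nearest coding gene beyond the 3′ end is Cyld, 275 kb away, and the nearest one upstream is Tox3, at 1203 kb.

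The promoter of the outermost start is shown because it lies in the start bin, 1 of the 3 bins from which the distal contacts reported below were measured. It runs from 250 bases before to 50 bases after the start, chr8:89044113-89044412 on the minus strand of GRCm38.p6 (RefSeq), and capitals mark the matched motif.

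Sall1 promoter: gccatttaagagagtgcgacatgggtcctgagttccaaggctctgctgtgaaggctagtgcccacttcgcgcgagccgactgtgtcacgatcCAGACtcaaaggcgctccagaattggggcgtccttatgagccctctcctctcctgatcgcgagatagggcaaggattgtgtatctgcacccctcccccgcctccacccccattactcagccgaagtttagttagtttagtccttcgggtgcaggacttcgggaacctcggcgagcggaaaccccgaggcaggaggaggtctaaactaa

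On either strand, this window held 1 match to the SMAD box CAGAC, whose first base lay at position -158 from the start. That motif occurred in 48.4% of the 21263 coding-gene promoters of the same length. There was no match to the PU.1 core GAGGAA (27.4% of promoters), the MAF half-site TGCTGA (18.1%), the GC box GGGCGG (46.2%), the AP-1 site TGACTCA (4.66%) or the E-box CANNTG (69.0%). The window was 57.3% G and C, against a median of 56.3%, and held 18 CpG dinucleotides. The same windows at the other starts were richer in G and C, at 70.0% and 79.7%, with 4 GC boxes and 1, respectively. A match is a description of letters and not a binding site.

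Every called partner of Sall1 outside the gene lay upstream of its start, in 8 bins without a coding gene. They formed 4 regions. The near region is 1 bin, chr8:89180001-89190000, 136 to 146 kb from the outermost start, with the pseudogene Gm5356. The first region is a pair of bins, chr8:89270001-89290000, at 226 to 246 kb. The middle region has 3 bins, chr8:89380001-89410000, at 336 to 366 kb. The far region has 2, chr8:89560001-89580000, at 516 to 536 kb. No gene of any kind was annotated in the first, middle and far regions. Of the 24 possible pairs of a gene bin and a partner bin, 6 were called in neither list.

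**Figure D1:**
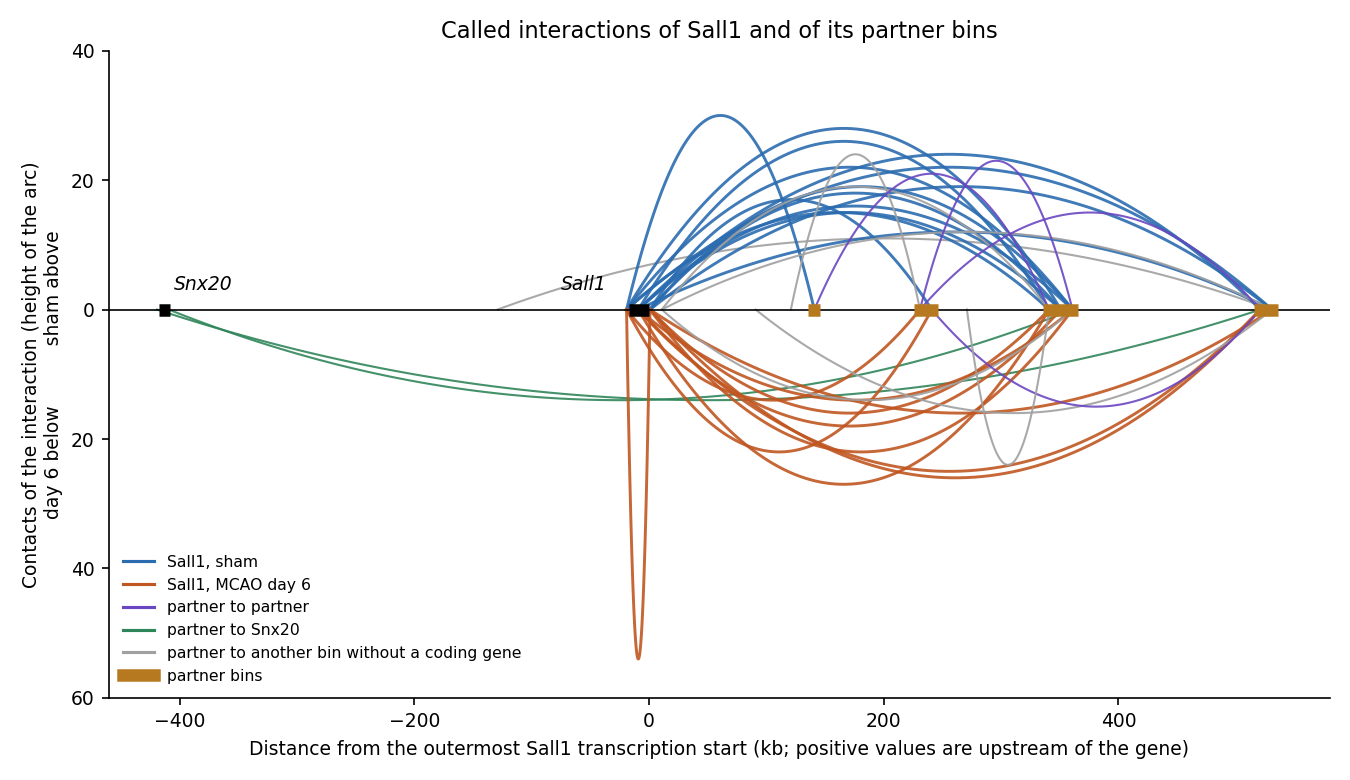
Called interactions of Sall1 and of its partner bins, sham above the axis and day 6 below; the x axis is the distance in kb from the outermost Sall1 start, with upstream positive, and the height of an arc is its number of contacts. In both lists the arcs from Sall1 to other bins run upstream, to regions between 136 and 536 kb, and the partner bins join Snx20 in the day 6 list only.

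In sham, 14 interactions joined Sall1 to 7 partner bins with 283 contacts (exact 95% Poisson interval 251 to 318), or 564 of every 1000000 called contacts. At day 6, 11 interactions held 254 contacts (224 to 287), or 236 of every 1000000. Of these 11, 10 left the gene, with 200 contacts, and 1 joined the end bin to the start bin inside it. These intervals cover counting error only. The raw sums were close, while the day 6 list as a whole had 2.25 times as many interactions and 2.14 times as many contacts as the sham list.

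The distal contacts were long. In sham the distance between the bins was 160 to 550 kb (median 365), and 253 contacts, 89.4% (exact binomial interval 85.2 to 92.7), spanned 200 kb or more. At day 6 the distances outside the gene were 250 to 530 kb, so all 200 distal contacts did so. Counted with the interaction inside the gene, whose bins are 20 kb apart, these 200 contacts were 78.7% of the total (73.2 to 83.6), and the median distance was 360 kb. Among the 4184 genes with at least 3 interactions in sham, the median of the share was 18.2%, and 88.6% of the genes were below Sall1. Among 9374 such genes at day 6 it was 36.4%, and 90.1% were below the 78.7% of Sall1. The number of Sall1 interactions was above that of 94.1% of these genes in sham, where the median gene had 4, and of 79.0% at day 6, where it had 6. All 14 Sall1 interactions in sham and 10 of 11 at day 6 had a partner in a bin without a coding gene. The nearest coding gene upstream is 1203 kb away, so an upstream partner at these distances could not lie at one. Of all interactions anchored on a coding gene, 35.4% in sham and 29.9% at day 6 had such a partner.

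Of the 19 different Sall1 interactions in the lists, 6 were called in both, 8 in sham only and 5 at day 6 only. The shared ones were 42.9% of the sham interactions (17.7 to 71.1) and 54.5% of those at day 6 (23.4 to 83.3). When each anchor was allowed to differ by 1 bin, 85.7% and 72.7% had a counterpart in the other list. All 6 shared interactions ended in the middle and far regions, 4 from the middle bin and 2 from the start bin.

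The contacts of the middle bin with these regions were much alike in the lists by count. It met the bin at 89560001 in the far region, 530 kb away, with 24 contacts in sham and 25 at day 6. This was 10.1 times the caller's expected count in sham (q = 1.65e-13 of the authors' caller), higher than 96.2% of interactions at like distance in that list. At day 6 it was 7.38 times (q = 4.55e-12), higher than 93.1%. The middle bin met the middle region through all of its 3 bins in both lists. With the bin at 89380001 it had 26 contacts in sham and 27 at day 6. With the bin at 89390001 it had 15 and 18, and with the bin at 89400001 16 and 14. The last of these was the interaction nearest the caller's limit at day 6, with q = 0.0009, so its call there is a close one. One more contact of the middle bin, with the bin at 89570001, was called in sham alone with 12 contacts. Pairs of like distance and coverage were called at day 6 from 13 contacts, so that count lay below the limit there.

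The start bin, which holds the promoter, reached the same regions. It met the bin at 89400001 with 19 contacts in sham and 22 at day 6, and the bin at 89570001 with 19 and 16. At day 6 it also met the neighbouring far bin, at 89560001 and 520 kb from it, with 26 contacts (17.0 to 38.1), 7.62 times the expected count (q = 8.17e-13). That pair was not in the sham list, where pairs of like distance and coverage were called with as few as 11 contacts. Within 1 bin of it, the sham list had the start bin with the bin at 89570001 (19 contacts). It also had the middle bin with the bins at 89560001 (24) and 89570001 (12). In sham the start bin met the middle region through its bin at 89390001 (18 contacts), and at day 6 through the bin at 89380001 (16 contacts). It met the first region, at 89280001, in sham alone, with 17 contacts. By count of contacts with the middle and far regions, the start bin had 56 in sham and 80 at day 6, from 3 and 4 interactions.

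The end bin, at the 3′ side of the gene, differed most between the lists. In sham it had 5 interactions with 117 contacts (96.8 to 140), of which 87 went to the middle and far regions. Its pair with the bin at 89390001 had 28 contacts (18.6 to 40.5), 8.97 times the expected 3.12 (q = 1.39e-14). Its pair with the bin at 89570001, 550 kb away, had 22 contacts, 9.48 times the expected count (q = 7.25e-12). It also met the bins at 89400001 with 22 contacts and 89380001 with 15, and the near region with 30, the highest count of any Sall1 interaction in sham.

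At day 6 no interaction of the end bin with the middle or far region was called. Pairs of like distance (within 50 kb) and coverage were called at day 6 with as few as 13 to 14 contacts, fewer than any of these 4 pairs had in sham. Both are raw counts. The modelled contacts at day 6 were 0.62 times those of sham and the called contacts 2.14 times. Whether an unchanged pair would have kept its count is thus unknown. The counts of these 4 pairs at day 6 are not in the list, so how far below the limit they were is unknown. With anchors allowed to differ by 1 bin, each of the 4 had a counterpart at day 6 in a pair of the middle bin. Those counterparts had 27, 18, 14 and 25 contacts at day 6 and were called in sham as well. The end bin itself met the first region at day 6, with 14 contacts at 89270001 and 22 at 89280001. It also met the start bin, 20 kb away inside the gene, with 54 (40.6 to 70.5). In sham, pairs like those with the first region were called from 14 and 15 contacts, so the former would have been at the limit there. The interaction inside the gene was 2.07 times its expected count of 26.0 (q = 1.99e-05), a ratio above that of only 5.99% of day 6 interactions at like distance.

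As shares of the distal contacts, the end bin held 41.3% in sham (35.5 to 47.3) and 18.0% at day 6 (12.9 to 24.0), intervals that do not overlap. The start bin held 25.8% (20.8 to 31.3) and 40% (33.2 to 47.1), which do not overlap either, and the middle bin 32.9% (27.4 to 38.7) and 42.0% (35.1 to 49.2), which do. These intervals cover the counting of called contacts in 1 library each and not the spread between animals. A pair enters or leaves a list with all of its contacts, so overlap or its lack is no test between the conditions. Of the start bin's 80 contacts at day 6, 26 came from the pair at 520 kb, which was not called in sham, although pairs within 1 bin of it were. By partner, the middle region held 56.2% of distal contacts in sham (50.2 to 62.0) and 48.5% at day 6 (41.4 to 55.7), and the far region 27.2% (22.1 to 32.8) and 33.5% (27 to 40.5), with overlapping intervals in both cases. The first region held 6.01% (3.54 to 9.44) and 18.0% (12.9 to 24.0), without overlap. The near region held 10.6% in sham (7.27 to 14.8) and had no called contact at day 6.

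How the contacts with the middle and far regions were shared between the lists depended on which calls were kept. When the longer list was shortened to the 19061 smallest q-values, the middle bin had 93 contacts in sham and 52 at day 6, and the start bin 56 and 48. With a limit of q = 1e-05 in both lists, the middle bin had 50 and 70, and the start bin 56 and 48. The order of sham and day 6 for these bins thus changed with the list. The end bin had 87 contacts in sham in the first case and 72 in the second. Both settings only remove calls, so they say nothing more about the end bin at day 6.

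**Figure D2:**
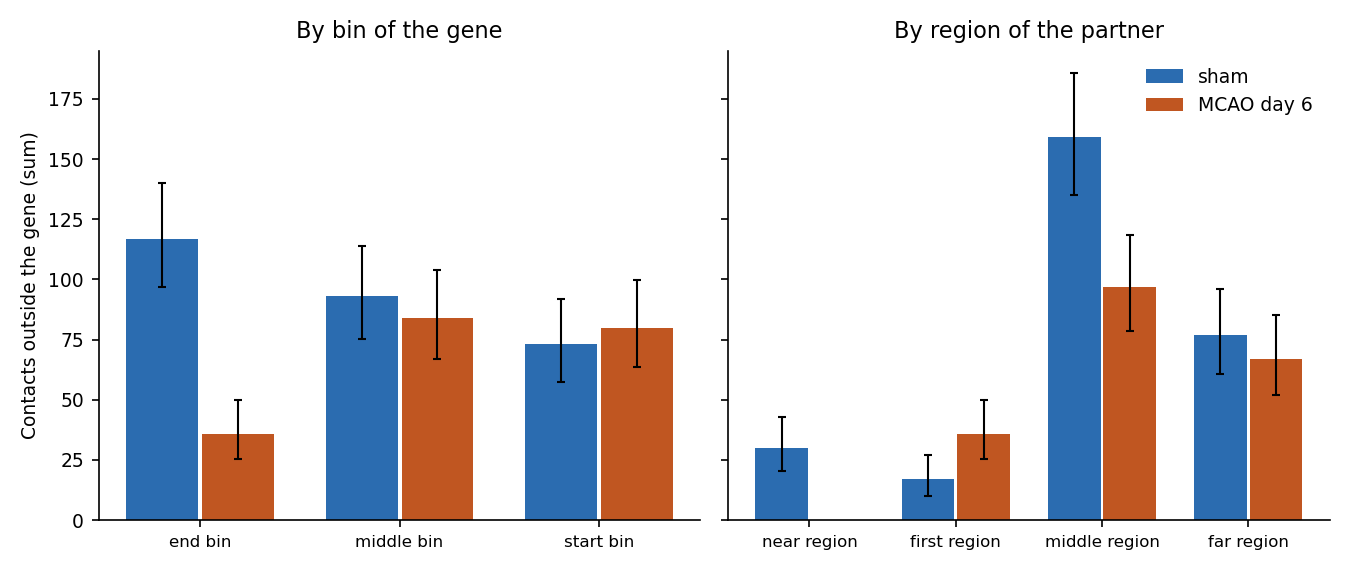
Summed contacts of called Sall1 interactions that leave the gene, by bin of the gene (left) and by region of the partner (right), in sham (blue) and at day 6 (orange), with exact 95% Poisson intervals for sums above 0. The end bin has 117 contacts in sham and 36 at day 6, while the middle bin has 93 and 84 and the start bin 73 and 80.

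Among the pairs called in both lists, the counts were nearly the same. The 6 shared Sall1 interactions held 119 contacts in sham and 122 at day 6, 4 were higher and 2 lower at day 6, and no pair differed by more than 3 contacts. Of all 4698 shared interactions, 2154 were higher and 2336 lower at day 6, with a median log2 ratio of 0. Relative to the caller's expected counts, all 6 Sall1 pairs were lower at day 6, by a median log2 difference of -0.30. The same ratio was lower at day 6 in 41.6% of the 4698 interactions shared by the lists, with a median of 0.09. The expected counts of Sall1 pairs with other bins were 2.29 to 7.04 in sham and 3.39 to 4.26 at day 6. Over all distal Sall1 pairs the observed count was 3.67 to 10.1 times the expected one in sham (median 5.72) and 3.45 to 7.62 times at day 6 (median 4.90).

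**Figure D3:**
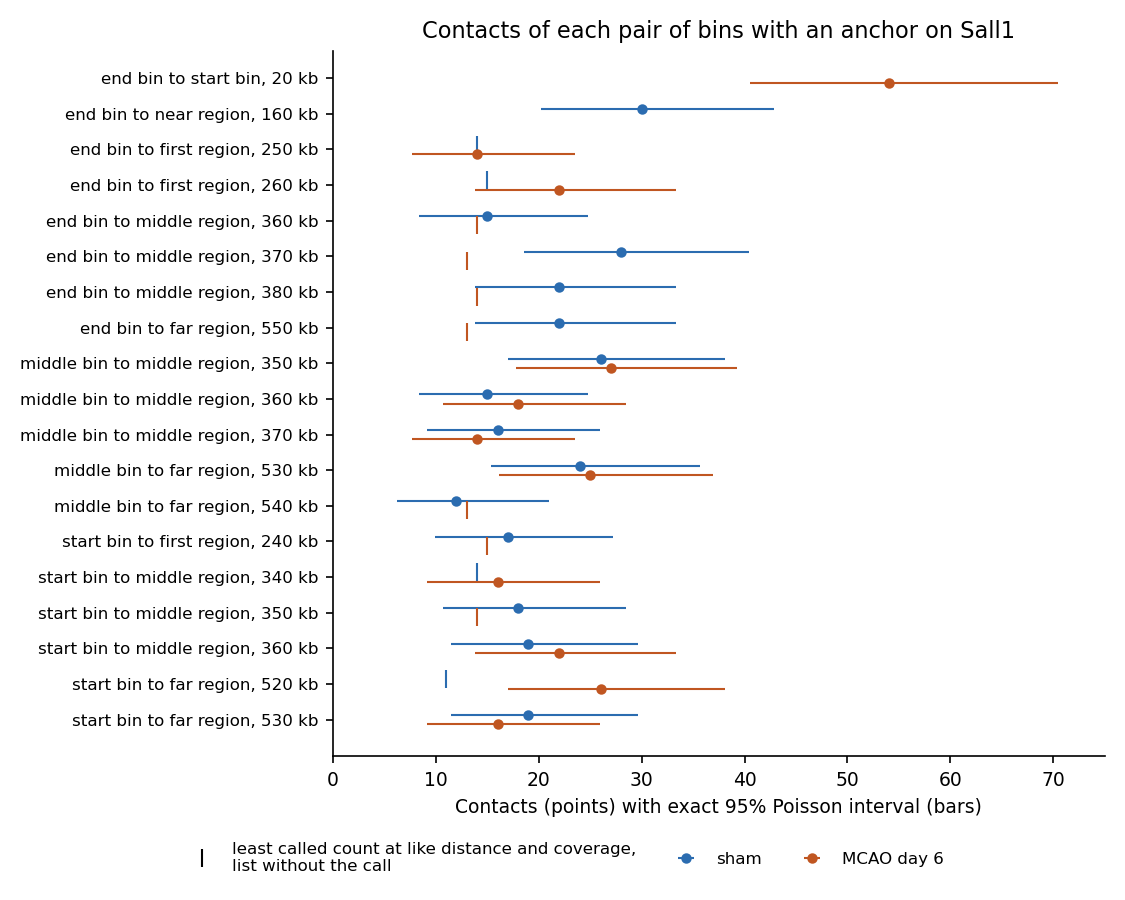
Contacts of each of the 19 bin pairs with an anchor on Sall1 (x axis, points) with exact 95% Poisson intervals (bars), in sham (blue) and at day 6 (orange); a tick marks the least count at which a pair of like distance and coverage was called in the list without the call. The intervals overlap for each of the 6 pairs called in both lists, and the end bin to the middle region at 370 kb (28 contacts in sham) and the start bin to the far region at 520 kb (26 at day 6) stand well above the ticks.

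The coverage of a bin is the reads in the anchor that the caller used. Relative to the library, it differed in direction between the start and middle bins of the gene and the partner bins measured in both lists. Relative coverage is the bin's coverage divided by 1 constant per library, 1099 in sham and 799 at day 6. In the start bin it was 1.41 in sham and 1.83 at day 6, in the middle bin 1.48 and 1.79, and in the end bin 1.59 and 1.38. The log2 ratios of day 6 over sham were 0.37, 0.28 and -0.20, so the end bin alone of the gene's bins was lower at day 6. In the middle region relative coverage was 1.60 and 1.21 at 89380001, 1.21 and 1.11 at 89390001, and 1.56 and 1.29 at 89400001. In the far region it was 1.06 and 0.766 at 89560001, and 0.960 and 0.851 at 89570001. In the first region it was 1.1 and 0.705 at 89270001, the lowest log2 ratio of these bins at -0.64, and 1.5 and 1.18 at 89280001. The near region had 1.41 in sham and was no anchor of the day 6 list.

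All 7 partner bins that were anchors in both lists thus had lower relative coverage at day 6, with a median log2 ratio of -0.35. Lower coverage was the rule for such bins: of the 16670 anchors common to the lists 53.9% were lower at day 6, and of the 3863 among them without a coding gene 73.6% were lower, with a median of -0.18. Among the 12807 common anchors at a coding gene, 47.9% were lower, with a median of 0.02. Coverage in a HiChIP library follows both the acetylation of a bin and its number of contacts, and the values here do not separate them.

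**Figure D4:**
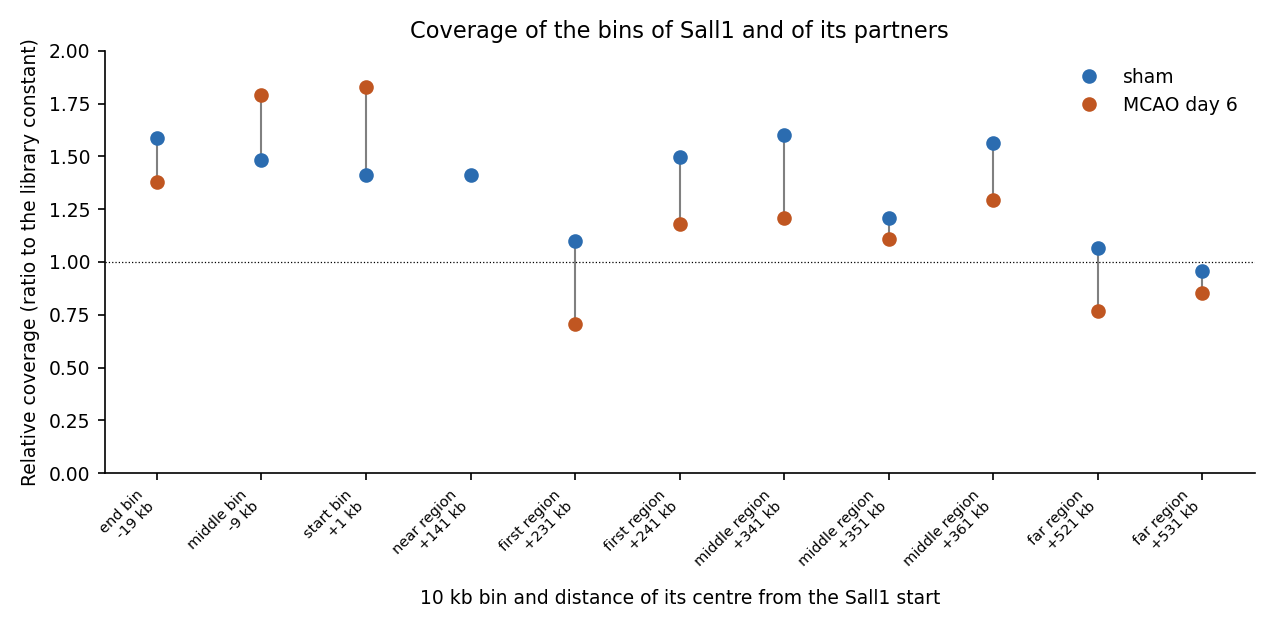
Relative coverage (y axis, ratio to the constant of the library) of the 3 bins of Sall1 and its 8 partner bins in sham (blue) and at day 6 (orange), ordered by the distance of the bin's centre from the Sall1 start. The start and middle bins are higher at day 6, the end bin and the 7 partner bins measured in both lists are lower, and the near region has a sham value only.

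The partner bins also contacted each other. In sham, 3 interactions with 59 contacts (44.9 to 76.1) joined partner bins: the near region to the middle region at 89380001 (21 contacts), the first region to the middle region at 89400001 (23) and the first region to the far region at 89560001 (15). In the last 2 the bin of the first region was 89270001. At day 6 there was 1, from the first region at 89280001 to the far region at 89560001, with 15 contacts. None of these was called in both lists, and at the limit of q = 1e-05 none was left in either.

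At day 6, partner bins were joined to another coding gene of the window in 2 interactions, with 28 contacts. Both ended at Snx20, which encodes a sorting nexin that binds the selectin ligand PSGL-1. The far bin at 89560001 met a bin of Snx20 940 kb away with 14 contacts, 5.02 times the expected count (q = 2.56e-05). The middle region's bin at 89400001 met the next bin of Snx20, 770 kb away, with 14 contacts as well, 4.15 times (q = 0.000166). Each such contact passes over Sall1 itself, and sham had no partner bin joined to a coding gene other than Sall1. At these distances, sham interactions between bins of any coverage were called with as few as 10 contacts. That limit was not matched to the coverage of these bins. Neither interaction with Snx20 passed q = 1e-05, nor the limit of 3.12e-06 at which the day 6 list is as long as the sham list. Beyond the window, the day 6 list joined the far bin at 89570001 to a bin of Adcy7, an adenylyl cyclase gene, 1280 kb away (16 contacts, q = 1.77e-06). It also joined the bin at 89400001 to a bin of Chd9, a chromatin remodeller gene, 1430 kb away (16 contacts, q = 4.91e-06).

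The remaining interactions of the partner bins ended in bins without a coding gene, 4 with 66 contacts in sham and 3 with 54 at day 6. In both lists one of these ends was the bin next to the start bin on the promoter side, chr8:89050001-89060000. It met the middle region at 89380001 (19 contacts) and the far region at 89570001 (12) in sham, and the middle region at 89400001 (14) at day 6. In all, partner bins took part in 21 sham interactions and in 18 day 6 interactions, and 14 and 10 of these had Sall1 at the other end.

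Each bin of Sall1 took part in at least 4 interactions in sham. The median anchor had 1 interaction in sham, where 13.1% had 4 or more, and 2 at day 6, where 24.3% did. The start bin had 4 in sham and 5 at day 6, the middle bin 5 and 4, and the end bin 5 and 3. The partner bin at 89560001 had 2 in sham and 4 at day 6, the one at 89570001 5 and 3, and the one at 89390001 3 and 1.

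For comparison with other genes, the contacts of each coding gene were expressed as a share of all called contacts, with a prior of 5 contacts added and scaled to the library. A gene counted as having more or fewer contacts at day 6 where the log2 ratio (day 6 over sham) reached 1 or -1 or lay beyond and it had at least 3 interactions in 1 list. Sall1 had a log2 ratio of -1.23 (counting interval -1.5 to -1.0) and counted as fewer, as did 10.3% of 9638 genes, while 39.1% counted as more. The size and sign depend on the scaling. The ratio was -0.16 (-0.41 to 0.09) when scaled by the contacts of shared interactions and 0.52 (0.28 to 0.78) when scaled by the contacts that the caller modelled, and Sall1 was not called by either. Scaled by shared interactions, 66.3% of the genes counted as more and 1.93% as fewer, and scaled by modelled contacts 84% and 0.82%. A scaling shifts the ratios of all genes nearly alike, so the position of Sall1 among genes is the same description under each. Among 7632 genes with interactions in both lists its log2 ratio minus that of the median gene was -1.41, -1.36 and -1.33 under the 3 scalings, with 8.82%, 9.07% and 9.38% of the genes below it.

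The ratio also rests on the gene's span. For the start bin alone it was -0.21, and without the interaction inside the gene, a setting chosen after the data were seen, it was -1.57.

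**Figure D5:**
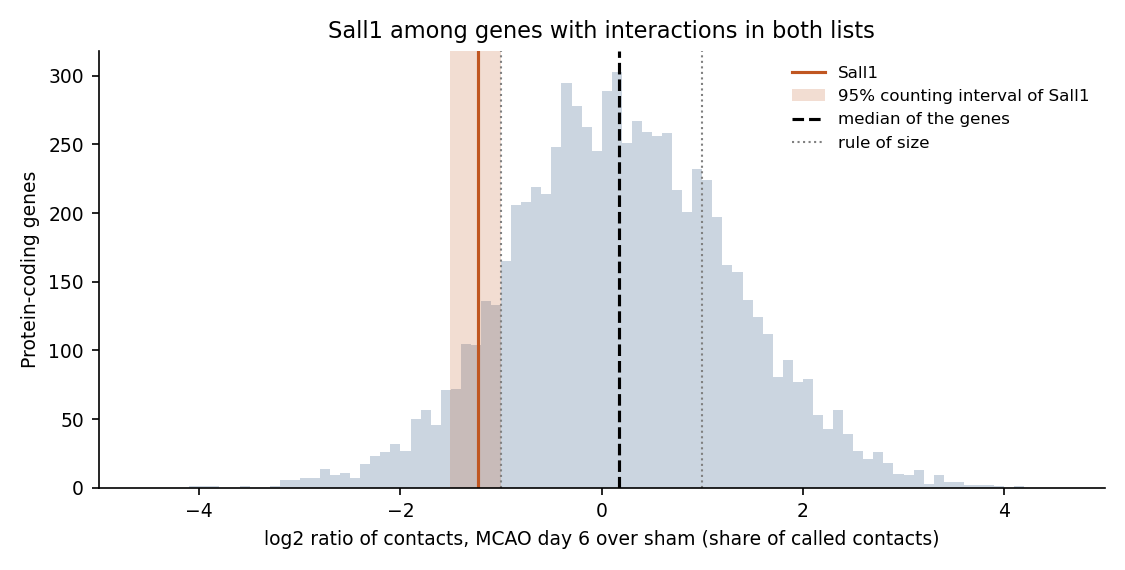
Histogram of the log2 ratio of contacts, day 6 over sham as shares of called contacts, for 7632 coding genes with interactions in both lists and at least 3 in 1 of them (y axis, number of genes); the solid line is Sall1 with its 95% counting interval, the dashed line the median gene and the dotted lines the limits of 1 and -1. Sall1, at -1.23, lies below the median of 0.17.

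None of the other genes of the window counted as fewer, against 10.3% of all genes. Nkd1, an antagonist of Wnt signalling, had 10 contacts in sham and 83 at day 6, from 1 and 4 interactions, and counted as more, with a log2 ratio of 1.67. Nod2, a sensor of bacterial cell wall fragments, had 112 and 274 (0.19), Cyld, a deubiquitinase that restrains NF-kB, 49 and 140 (0.39), and Snx20 167 and 251 (-0.50), and none of these was called. Their raw contacts were higher at day 6, as were those of the list as a whole (2.14 times), while the raw contacts of Sall1 were lower. As a share of called contacts, Snx20 was lower at day 6, as Sall1 was.

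Other members of the Sall family, which share its zinc fingers, had no interaction in sham. Sall2 had 3 interactions with 107 contacts at day 6, Sall3 had 5 with 105, and Sall4 had none in either list.

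Of the TGF-beta pathway genes, listed because the pathway lies upstream of Sall1, 15 of 20 in the annotation had at least 3 interactions in 1 list. Of these, 2 counted as more, 1 as fewer and 12 as neither, with a median log2 ratio of -0.57. Over all genes with 3 interactions the median was 0.54, and 39.1% counted as more and 10.3% as fewer. The receptor genes Tgfbr1 (720 contacts in sham, 781 at day 6, log2 -0.97) and Tgfbr2 (1266 and 1758, -0.62) and the signal transducer gene Smad3 (886 and 1075, -0.82) were not called. Smad4, the common partner of receptor-activated SMADs, was an anchor in sham alone, where 3 interactions held 74 contacts. The ligand gene Tgfb1 had 167 and 307 contacts (-0.22), and Tgfb3 had none in sham and 44 contacts at day 6. Zeb1, a zinc-finger gene that TGF-beta induces, had 34 and 212 (1.46). By shared interactions 4 of the 15 counted as more and 1 as fewer, and by modelled contacts 11 and 1. Of all genes, 66.3% and 84% counted as more under these scalings and 1.93% and 0.82% as fewer.

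Of 24 transcription factors of microglia, 2 counted as more, 8 as fewer and 14 as neither, with a median of -0.68, and 5 had a lower ratio than Sall1. Over all genes with 3 interactions, 39.1% counted as more and 10.3% as fewer, with a median of 0.54. Irf8, a regulator of microglial development, had 562 contacts in sham and 358 at day 6 (-1.73), and Mef2c had 670 and 606 (-1.23). Spi1, which encodes PU.1, had 443 and 889 (-0.09), and Klf6 had the highest ratio, 52 and 516 (2.15). The lowest was that of Smad4. By shared interactions 6 of the 24 counted as more and 1 as fewer, against 66.3% and 1.93% of all genes, and by modelled contacts 13 and 1, against 84% and 0.82%.

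Of 20 homeostatic microglia genes, 19 had at least 3 interactions in 1 list, and Cst3, the other, had interactions in sham only. Of the 19, 1 counted as more, 6 as fewer and 12 as neither, with a median of -0.91. The lowest was Olfml3 (70 and 28 contacts, -2.17) and the highest Sparc, a matrix protein gene (78 and 355, 1.06). Of 17 genes of activated and inflammatory microglia, 11 had at least 3 interactions in 1 list. Of these 11, 2 counted as more, 1 as fewer and 8 as neither, with a median of -0.02. Of the genes left out, Lyz2, Ms4a7, Lgals3 and Ccl2 had interactions at day 6 only, Clec7a in both lists and Cybb in neither. Over all genes with 3 interactions, 39.1% counted as more and 10.3% as fewer, with a median of 0.54, above that of both lists. Gpnmb, a glycoprotein of lipid-laden phagocytes, and Spp1, which encodes osteopontin, had no interaction in sham and 57 and 49 contacts at day 6, and Tnf had 345 and 309 (-1.24). By shared interactions 5 of the homeostatic genes counted as more and 1 as fewer, and 6 and none of the activated ones. By modelled contacts these counts were 7 and none, and 9 and none. Of all genes 66.3% and 84% counted as more under these scalings, and 1.93% and 0.82% as fewer.

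The 5 genes most like Sall1 in contacts of both lists and in the median distance of their interactions, among 3919 genes with at least 3 interactions in both, were Tomm20, Dym, Rdh13, Cpsf2 and Zfp36l1. Likeness was the sum of the absolute log2 differences in the 3 values, 0.37 for Tomm20 and 0.70 for Zfp36l1. Tomm20, a gene of the mitochondrial import receptor, had 263 contacts in sham and 255 at day 6, at a median distance of 430 kb against 360 kb for Sall1. Zfp36l1, which encodes an mRNA decay factor, had 255 and 285. The share of sham contacts at 200 kb or more was 92.8% for Tomm20, 74.7% for Dym and 50.8% for Rdh13. It was 100% for Cpsf2 and for Zfp36l1, against 89.4% for Sall1.

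Markers of the sorted cell type were present, with interactions at 8 of 8 microglia genes in both lists, Sall1 among them, with a summed 4444 of every 1000000 called contacts in sham and 2370 at day 6. Border macrophage and monocyte markers had an interaction at 4 of 10 genes in sham and 7 at day 6, with 674 and 485 of every 1000000 contacts. Of these, the contacts of Ccr2 numbered 144 in sham against 77 at day 6 (log2 -1.91), those of Plac8 131 and 166 (-0.73), those of Mrc1 45 and 170 (0.78) and those of Pf4 18 and 16. Lyve1, Ms4a7 and F13a1 had interactions at day 6 only, and Cd163, Ly6c2 and Cd209f had none in either list. Neutrophil markers had an interaction at 1 of 7 genes in each list (73.8 and 121 of every 1000000), with S100a8, S100a9 and Ly6g at none. The summed contacts per 1000000 were 201 in sham and 377 at day 6 for endothelial markers, 377 and 451 for oligodendrocytes, 433 and 140 for neurons, 632 and 474 for astrocytes, and 558 and 529 for T and B cells. These are shares of a list with 2.14 times the contacts at day 6. Raw sums rose from 2229 to 2545 for microglia markers and from 338 to 521 for border macrophages and monocytes. They fell for neurons alone (217 to 150). Of all 21900 coding genes, 4184 had at least 3 interactions in sham and 9374 at day 6. The part of other cells in the values of Sall1 was not tested.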

How the data were processed

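H3K27ac HiChIP was measured in 2 libraries of sorted microglia, 1 of sham-operated mice and 1 at day 6 after MCAO. Per the submitters' processing notes, HiC-Pro 3.1.0 and the builds mm10 and GRCm38 were used. No source used here names the caller of the interactions or its settings. Each deposited list holds pairs of 10 kb bins of 1 chromosome, 20 to 2000 kb apart, with q-values up to 0.001. The deposited contact counts and coverage counts are whole, unscaled reads. The deposited bias is a ratio of coverage to 1 constant per library. The authors' caller gave each pair an expected count, which as deposited equals the deposited probability, a fraction, times 1 constant per library (3629250 in sham, 2258259 at day 6), taken here as the contacts modelled. P-values and q-values are the authors' own, per library.

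The sham list held 501608 contacts and the day 6 list 1074041, which were 13.8% and 47.6% of the contacts modelled. These are sums over called pairs and not sequencing depth, and a pair that was not called has no value. Reads carry no molecular identifiers and may be copies of 1 molecule, so the 95% intervals (exact Poisson for sums, Clopper-Pearson for shares) cover counting error only.

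Genes and starts were those of RefSeq for GRCm38.p6, the assembly of mm10. An anchor counted for a gene where its bin overlapped the span with 1 kb on each side. Interactions were shared where both bins were the same. For a pair called in 1 list, the least called count of the other list was taken over pairs within 50 kb in distance and with a like product of coverages. The ratio of day 6 over sham used a prior of 5 contacts, and the rule of size (log2 of at least 1 either way, at least 3 interactions in 1 list) took the place of a test. Named genes were Sall1, every coding gene with an interaction in the window, the highest and lowest of each list with landmarks, and the 5 genes most like Sall1. Members and lists were chosen with earlier results of these data known. Alternatives covered the scaling, q-value limit, list length, prior, flank, start bin, distance limit and bin tolerance. Python 3.11.15, numpy 2.4.6, pandas 2.3.3 and scipy 1.17.1 were used.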

Additional observations from a re-analysis of the deposited data

How the results depend on the processing

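Of 76 alternative values of 13 results, 46 stayed within the limit set for the result, 29 moved and 1 reversed. The limit was the counting interval, 1.5 times the reported count or, for relative coverage, the standard deviation across the bins. The 46 include flanks of 0 and 5 kb for the results on Sall1 and its partners, which cover the same bins and could not differ. The log2 ratio of Sall1 (-1.23) was -0.16 scaled by shared interactions, 0.52 (reversed) by modelled contacts, -0.71 from the sum of observed over expected contacts, -1.91 at q-values of 1e-05 or less, -0.21 for the start bin alone and -1.57 without the interaction inside the gene. The number of Sall1 interactions was 9 in sham and 6 at day 6 at the stricter q-value, 4 and 5 for the start bin, and 5 at day 6 with lists of equal length. The share of contacts at 200 kb or more was 83.4% and 64.6% with a limit of 300 kb, 92.9% and 90.9% as a share of interactions, and 100% and 59.7% for the start bin, and 100% at day 6 at the stricter q-value, where the interaction inside the gene is lost. With anchors allowed to differ by 1 bin, 85.7% of the sham interactions were shared. Contacts between partner bins were 0 in both lists at the stricter q-value, 21 and 0 with lists of equal length, 0 in sham for partner bins of both lists, and 37 at day 6 for the start bin, where the end bin counts as a partner. Genes with more contacts numbered 6389 by shared interactions, 8094 by modelled contacts and 1875 with lists of equal length, and genes with fewer 186 and 79 by the first 2. Flanks of 0 and 5 kb left the interactions of Sall1 as they were because the bins were the same. No paired analysis was possible because each condition has 1 library. Contacts of pairs that were not called are unknown, which limits every statement on a pair in 1 list.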
